A study of Mus musculus with 18 samples.

Results

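The integrated stress response and the unfolded protein response were followed through 38 genes among the 54838 genes of the count table. The genes were taken by name from a list whose rule uses no measured value, although the list was drawn up with earlier results of these data known. They fall into 2 arms of 19 genes each: the amino acid arm, from Atf4 to Vldlr, which holds the transcription factor ATF4 and genes it is known to switch on, and the endoplasmic reticulum arm, from Hspa5 to Sel1l, which holds the chaperones, disulphide isomerases, degradation factors and regulators of the endoplasmic reticulum. All 38 were found in the table and all 38 passed the filter on low counts.

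Both arms meet at the translation factor eIF2 alpha. When amino acids run short or unfolded proteins collect in the endoplasmic reticulum, kinases phosphorylate it, protein synthesis falls, and ATF4 is translated from its messenger and raises genes for amino acid synthesis and uptake. In the endoplasmic reticulum, PERK is such a kinase, while IRE1, which splices the Xbp1 messenger, and ATF6, which is cleaved in the Golgi, raise the chaperones and the machinery that exports misfolded proteins for degradation. Much of this control is invisible to gene counts, which do not show the translation of Atf4, the splicing of Xbp1 or the cleavage of ATF6. Dividing cells are known to use the same ATF4 targets to make serine, glycine and one-carbon units.

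Cultured mouse cells gave total RNA, which was sequenced after removal of ribosomal RNA, in 6 conditions, with 3 libraries in each. The cells came from the ventricular zone of C57BL/6J brains at embryonic day 14 and were grown as neurospheres (NSPs, floating aggregates of dividing neural stem cells) in DMEM F12 with B27 and 20 ng/ml EGF. For differentiation towards astrocytes they were moved onto poly-L-ornithine in DMEM with 10% fetal bovine serum. They were kept there for 24 h or 72 h, either untreated or with 50 ng/ml of the inflammatory cytokine TNF, or untreated for 1 week. No library was treated with TNF for 1 week. Between NSPs and differentiated cells the medium, the growth factor, the serum, the attachment and the age of the culture change together, so their parts in a difference cannot be told apart, and neither can fewer cells of a type and less RNA per cell. The study's methods describe stem cells isolated from single brains and, in general terms, at least 3 independent experiments, but the labels do not tie the 3 libraries of a condition to separate embryos or cultures. The p-values measure the spread between these libraries, which may in part be technical.

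Library totals lay between 12509693 and 22549627 counts. The summed level of 4 TNF response genes that were detected and of Icam1 was 193 to 232 CPM, counts scaled to the size of the library, in the 6 libraries with TNF and 22.6 to 37.1 CPM in the 12 without. The summed level of 6 stem cell and division markers was 3557 to 5026 CPM in NSPs and 1079 to 1866 CPM elsewhere, while 8 astrocyte markers summed to 5225 to 5447 CPM in NSPs, 5854 to 6151 at 24 h, 6196 to 8484 at 72 h and 3497 to 3627 at 1 week. Of these 8, 5 were called lower at 1 week than at 72 h (median -1.63). The 6 oligodendrocyte markers summed to a median of 761 CPM in NSPs (544 to 807), 276 at 24 h (252 to 310), 56.8 at 72 h (48.0 at the lowest) and 81.4 at 1 week (67.4 to 85.9), and of the 4 tested 2, 3 and 4 were called lower than in NSPs at 24 h, 72 h and 1 week. The 6 neuron markers summed to 1618 to 2093 CPM in NSPs, 1617 to 1799 at 24 h, 1574 to 1627 at 72 h and 1856 to 1915 at 1 week. Map2 reached 2075 CPM and Tubb3, the next, 55.5 CPM. Of the 6, 1, 4 and 4 were called lower than in NSPs at 24 h, 72 h and 1 week (medians -0.22, -1.24 and -1.92). At 24 h 1 was called higher. Microglial markers stayed at or below 3.80 CPM in sum, with C1qa at 0 in every library, and endothelial and mural markers at or below 5.67 CPM. Astrocyte markers were lower in sum with TNF at 72 h (3683 to 5101 CPM) than without it (6196 to 8484 CPM). With TNF at 24 h and 72 h, 2 and 3 of 8 astrocyte markers were called lower, against 1.32% and 5.21% of all genes. So were 1 and 0 of the 4 oligodendrocyte markers tested and 0 and 1 of 6 neuron markers. The part of these markers' cells in any difference below, with time or with TNF, was not tested.

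Replicate 1 stood apart from the other 2 libraries over all genes in NSPs, in 24 h TNF and in 72 h TNF. Both arms moved with it in NSPs. In 24 h TNF the endoplasmic reticulum arm and part of the amino acid arm did, and in 72 h TNF the amino acid arm alone. In NSPs, replicate 1 was the lowest of the 3 libraries for 17 of 19 genes of the amino acid arm and the highest for 14 of 19 genes of the endoplasmic reticulum arm, with median differences from the other 2 of -0.53 and 0.42 on the log2 scale. Among all genes tested this library was the lowest for 38.4% and the highest for 47.3%. With TNF the order turned over in part. At 24 h replicate 1 was the highest for 10 of 19 amino acid genes and the lowest for 7. It was the lowest for 14 of 19 endoplasmic reticulum genes. At 72 h it was the highest for 14 amino acid genes and the lowest for 10 endoplasmic reticulum genes. Among all genes this library was the highest for 40.4% and the lowest for 38.8% at 24 h, and for 38.6% and 37.2% at 72 h. At 72 h the median difference of the endoplasmic reticulum arm was -0.13, no further from 0 than that of replicate 2 (0.13). Untreated libraries also differed in this arm: 72 h replicate 3 was the highest for 18 of 19 genes (median 0.34), 72 h replicate 1 the lowest for 17 (-0.39) and 1 week replicate 2 the lowest for 16 (-0.34). In 24 h TNF and 72 h TNF, the mitochondrial share of counts of replicate 1 was 6.24% and 8.01%, against 1.6% to 5.02% in the other 16 libraries. The RNA quality numbers are known only as a range over all samples, which runs from strongly degraded to intact RNA, and the part of RNA quality or of the cultures in these differences was not tested. Markers of cell types moved with replicate 1 too. Its oligodendrocyte markers were the lowest of the 3 libraries in each of these conditions (544 against 807 and 761 CPM in NSPs, 71.9 against 196 and 254 in 24 h TNF, and 42.5 against 85.9 and 116 in 72 h TNF). Its stem cell and division markers were the highest in NSPs (5026 against 3557 and 3697 CPM) and the lowest with TNF (1346 against 1566 and 1490 at 24 h, and 1079 against 1429 and 1400 at 72 h). Its astrocyte markers were the highest with TNF (6411 against 5042 and 5089 CPM at 24 h, and 5101 against 4043 and 3683 at 72 h). Its neuron markers were the highest in NSPs (2093 against 1618 and 1655 CPM) and the lowest in 24 h TNF (1436 against 1766 and 1533). In 72 h TNF they lay between the others (1507 against 1656 and 1468). The part of these cell types was not tested either. Values without the 3 libraries are given beside the counts and beside the genes they touch most.

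**Figure D1:**
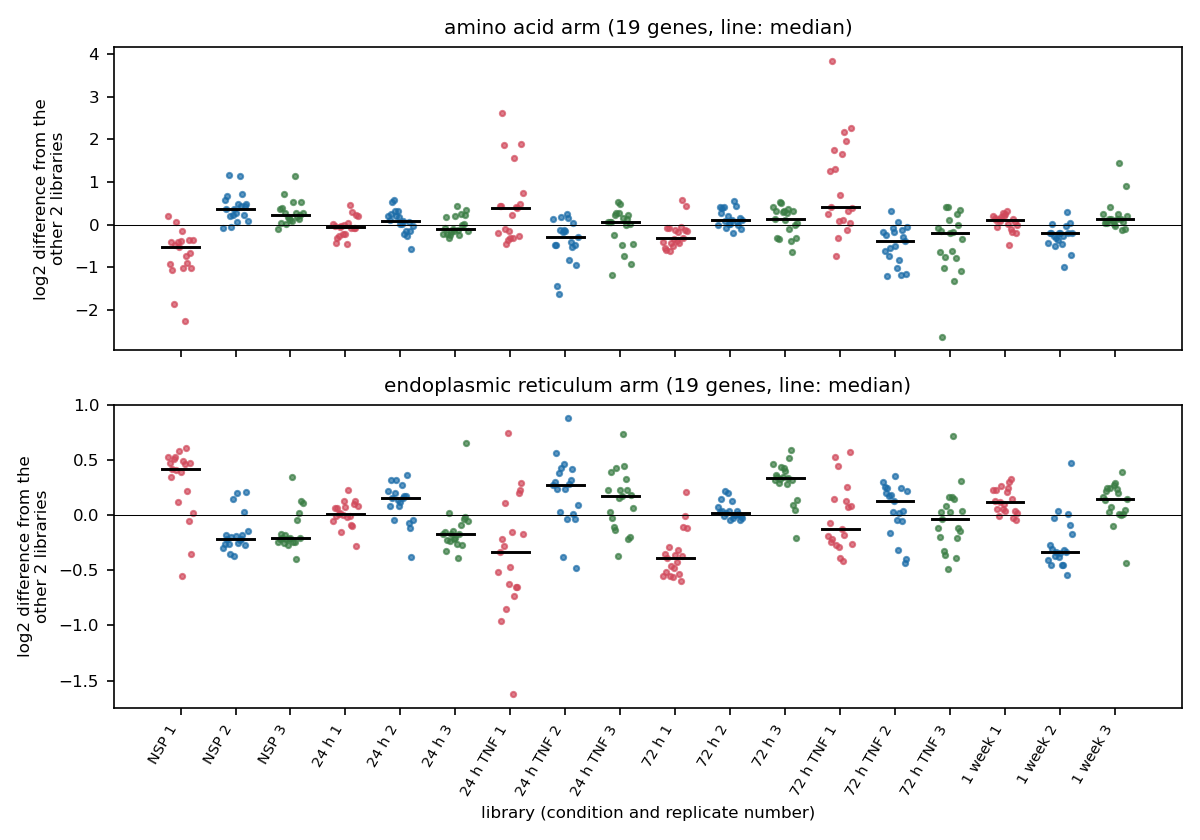
Each point is 1 gene, plotted as the log2 difference between its level in 1 library and the mean of the other 2 libraries of the same condition (y axis), for the 18 libraries (x axis) and for the 2 arms of 19 genes; lines are medians and colours mark replicates 1 (red), 2 (blue) and 3 (green). The median of NSP replicate 1 lies at -0.53 in the amino acid arm and at 0.42 in the endoplasmic reticulum arm, and those of TNF replicate 1 at 24 h lie at 0.40 and -0.34.

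The 2 arms carry different letters in their promoters, which are shown here because the arms are compared throughout. Promoters from RefSeq on GRCm38.p6, from 250 bases before to 50 after the start of the gene, were found for 33 of the 38 genes and searched on both strands. The letters TGATGNAA, known as the C/EBP-ATF response element that ATF4 binds with a partner, were found in 6 of 16 promoters of the amino acid arm and in 1 of 17 of the endoplasmic reticulum arm, against 3.97% of all 32851 promoters of this length. The endoplasmic reticulum stress element, CCAAT and CCACG with any 9 bases between, was found in 8 of 17 promoters of the endoplasmic reticulum arm and in 0 of 16 of the amino acid arm, against 0.119% of all promoters. The related element ATTGG and CCACG with any 1 base between was found in Dnajb11 and Herpud1 (0.0365% of all promoters), and TGACGTGG, known to be bound by XBP1, in no member (0.676%). No match to one of these motifs overlapped a match to another.

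In the windows below the matched letters are in capitals and each sequence reads 5′ to 3′ along the strand of its gene. Windows are shorter where GENCODE M21 has an exon of a longer transcript.
Chac1 (chr2:119351029-119351076, plus strand): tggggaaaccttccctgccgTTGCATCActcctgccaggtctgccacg
Asns (chr6:7693214-7693243, minus strand): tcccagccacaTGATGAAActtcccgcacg
Slc7a11 (chr3:50443633-50443699, minus strand): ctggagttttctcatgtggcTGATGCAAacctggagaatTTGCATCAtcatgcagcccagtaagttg
Nupr1 (chr7:126625562-126625591, minus strand): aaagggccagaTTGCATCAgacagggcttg
Vldlr (chr19:27216809-27216838, plus strand): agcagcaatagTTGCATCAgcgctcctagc
Herpud1 (chr8:94386297-94386344, plus strand): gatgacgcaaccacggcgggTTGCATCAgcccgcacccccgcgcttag
Those 6 genes and Trib3 are the 7 members with the ATF element. The Trib3 match begins at base 15 counted from the RefSeq start and lies upstream of the GENCODE M21 gene. Slc7a11 alone holds it at 2 places, once on each strand. The windows that follow hold the endoplasmic reticulum stress element, in Herpud1 its shorter relative.
Hspa5 (chr2:34772020-34772048, plus strand): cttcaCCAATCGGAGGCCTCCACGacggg
Hsp90b1 (chr10:86705618-86705676, minus strand): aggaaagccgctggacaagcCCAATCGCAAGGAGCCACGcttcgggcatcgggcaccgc
Hsp90b1 (chr10:86705513-86705571, minus strand): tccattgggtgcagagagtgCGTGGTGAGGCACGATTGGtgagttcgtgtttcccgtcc
Calr (chr8:84847055-84847113, minus strand): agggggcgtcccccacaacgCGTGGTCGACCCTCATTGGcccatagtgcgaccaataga
Canx (chr11:50325780-50325838, minus strand): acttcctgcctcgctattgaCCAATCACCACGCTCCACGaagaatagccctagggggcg
Pdia6 (chr12:17266471-17266529, plus strand): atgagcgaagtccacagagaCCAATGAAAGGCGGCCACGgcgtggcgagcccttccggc
Dnajc3 (chr14:118937807-118937865, plus strand): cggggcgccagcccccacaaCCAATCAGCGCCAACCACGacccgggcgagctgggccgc
Creld2 (chr15:88819500-88819558, plus strand): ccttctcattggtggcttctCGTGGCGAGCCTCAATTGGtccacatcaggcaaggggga
Syvn1 (chr19:6046512-6046570, plus strand): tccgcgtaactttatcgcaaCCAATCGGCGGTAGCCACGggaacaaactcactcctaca
Herpud1 (chr8:94386357-94386407, plus strand): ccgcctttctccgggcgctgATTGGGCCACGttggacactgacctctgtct
In Dnajb11 the shorter relative lies past the start of the transcript. A match is a description of these letters and not evidence of binding.

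Leaving the NSP state lowered the amino acid arm and left the centre of the endoplasmic reticulum arm near 0. At 24 h, 16 of 19 genes of the amino acid arm fell and none rose (none also at an unadjusted p below 0.05), at 72 h 14 fell and 2 rose, and at 1 week 13 fell and 2 rose, at an adjusted p below 0.05 in edgeR's quasi-likelihood test with Benjamini-Hochberg adjustment over all genes tested, which is the test behind every adjusted p here. Among all 20067 genes tested, 25.5%, 27.2% and 29.1% fell and 27.2%, 28.1% and 29.6% rose, which makes 52.7%, 55.3% and 58.6% in either direction. In the endoplasmic reticulum arm, 3 genes fell and 2 rose at 24 h, 7 fell and 6 rose at 72 h, and 7 fell and 2 rose at 1 week. The median log2 fold changes were -1.32, -1.44 and -1.29 in the amino acid arm, -0.14, -0.28 and -0.23 in the endoplasmic reticulum arm, and 0.06, 0.05 and 0.06 over all genes tested. These 3 comparisons share the NSP libraries. Without the 3 libraries that stood apart, 22, 28 and 26 of the 38 genes were called in place of 21, 29 and 24.

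**Figure D2:**
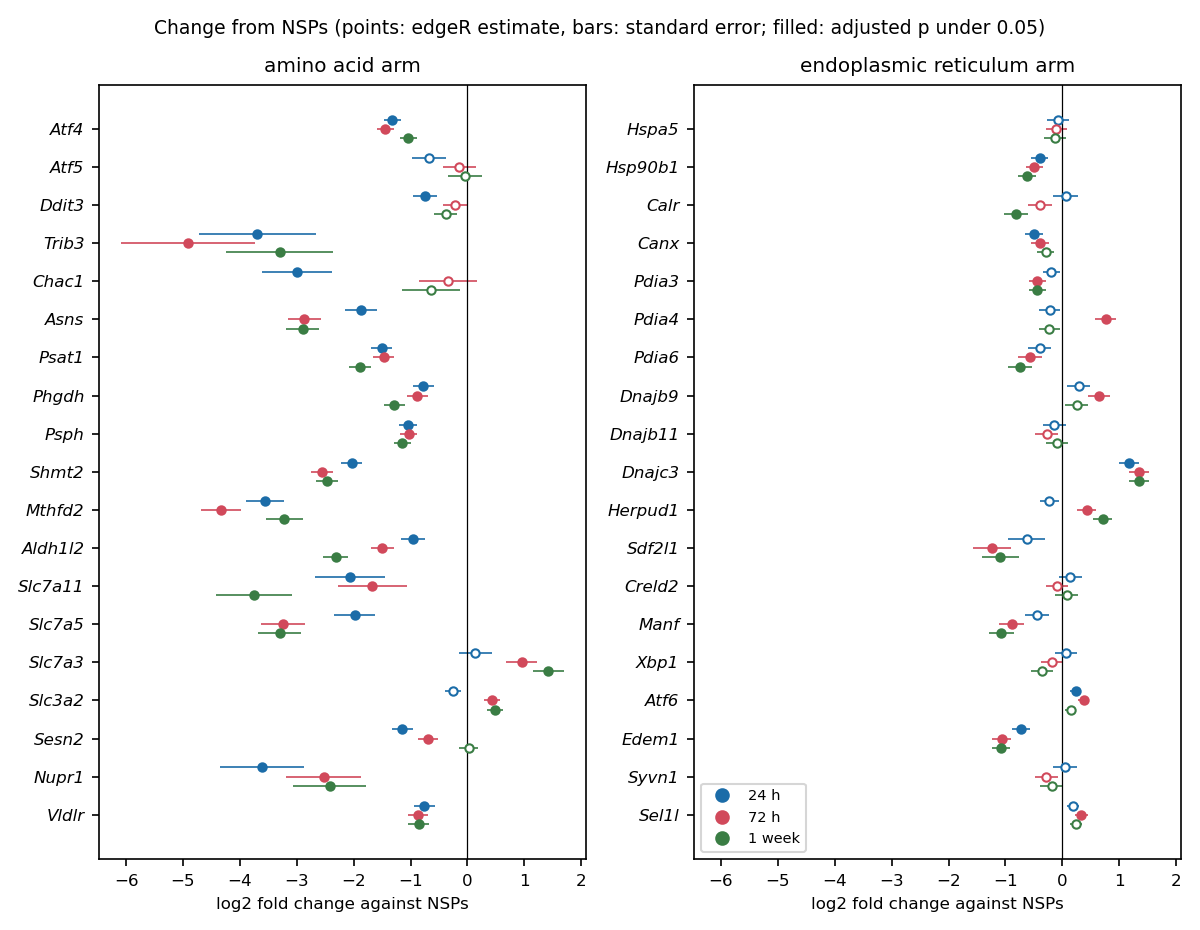
Log2 fold change against NSPs (x axis) for each gene (y axis) at 24 h (blue), 72 h (red) and 1 week (green) without TNF, with the standard error as bars; filled points have an adjusted p below 0.05. In the amino acid arm most points lie left of 0, down to -4.91 for Trib3, and in the endoplasmic reticulum arm they lie between -1.24 for Sdf2l1 and 1.35 for Dnajc3.

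On a per-length scale the medians of the arms were nearer to each other in NSPs than later. The median level of the 19 amino acid genes was 16.2 CPM per kilobase of exon in NSPs and 6.18 to 7.54 in the other 5 conditions, and that of the endoplasmic reticulum genes was 21.6 in NSPs and 17.7 to 23.7 elsewhere. The highest gene per kilobase was Phgdh in the amino acid arm in NSPs (113 CPM per kilobase) and Canx in the endoplasmic reticulum arm (274).

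Of the regulators, Atf4 itself fell. Its gene on chr15:80255184-80257541 (GENCODE M21, mm10) was counted at 262, 230 and 227 CPM in NSPs and at 96.6, 105 and 86.0 CPM at 24 h. It stood at 71.9, 87.1 and 106 CPM at 72 h and at 126, 94.1 and 129 CPM at 1 week. Every differentiated library was below every NSP library. Atf4 was 2.5-fold lower at 24 h (log2 fold change -1.32 ± 0.15 (SE), adjusted p = 1.04e-06), 2.72-fold lower at 72 h and 2.06-fold lower at 1 week.

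Ddit3, which encodes the death-promoting factor CHOP, was lower than in NSPs at 24 h, with 11.6, 16.6 and 14.2 CPM in NSPs and 6.73, 9.34 and 9.04 CPM at 24 h. The difference of -0.75 ± 0.21 had an adjusted p of 0.00626, and the groups did not overlap. At 72 h and 1 week the log2 fold changes were -0.21 and -0.39 (adjusted p = 0.394 and 0.117), and without the 3 libraries that stood apart the 1 week value was called (-0.51, adjusted p = 0.0207). Ddit3 shares 105 exonic bases with a second entry of the same name, which had no counts, and 68 with Mars on the other strand. Atf5, a relative of Atf4, was not called by edgeR, with log2 fold changes of -0.68, -0.14 and -0.04, and NSP replicate 1 (12.9 CPM) lay far below the other 2 (26.2 and 23.6 CPM). With the 3 libraries that stood apart left out, Atf5 was lower at 24 h (-0.94, adjusted p = 9.05e-05). It was also called lower at 24 h by DESeq2 (-0.72, adjusted p = 0.0479), with only the groups compared in the fit (0.0475), with no filter on low counts (0.00140) and without NSP replicate 1 (0.0147) or 72 h TNF replicate 1 (0.0195).

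The largest falls were in genes that ATF4 is known to induce under stress. Trib3, a pseudokinase that feeds back on ATF4, had 1.52, 3.57 and 3.13 CPM in NSPs and 0.0757, 0.123 and 0.0550 CPM at 72 h. Those 72 h values stand for 1, 2 and 1 reads, against 24, 65 and 55 in NSPs. The ratio of the pooled reads was 33.3-fold lower, with an exact 95% interval from 12.7 to 124 that covers counting error only. Trib3 also fell at 24 h (log2 fold change -3.69) and at 1 week (-3.30).

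Nupr1, a small stress-induced chromatin protein, stood at 2.86, 5.88 and 5.97 CPM in NSPs and at 0.453, 0.280 and 0.489 CPM at 24 h. It was 12.2-fold lower at 24 h (-3.61 ± 0.74, adjusted p = 0.000565), 5.76-fold lower at 72 h and 5.37-fold lower at 1 week. Chac1, which degrades glutathione, fell and came back. It had 2.54, 10.7 and 8.65 CPM in NSPs, 0.756, 1.17 and 0.733 CPM at 24 h and 5.45, 6.93 and 4.84 CPM at 72 h. The fall at 24 h was 8.0-fold (-3.00 ± 0.62, adjusted p = 0.000567), and at 72 h and 1 week Chac1 was not called (-0.35 and -0.64). It was lower than in NSPs at these times too when the 3 libraries that stood apart were left out (-0.76 and -1.04, adjusted p = 0.00772 and 0.000651).

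Sesn2, a leucine sensor that restrains mTORC1, followed a similar course, with 69.2, 115 and 104 CPM in NSPs and 41.9, 40.4 and 48.4 CPM at 24 h. At 1 week its 3 libraries stood at 100, 98.8 and 93.2 CPM, within the NSP range. The log2 fold changes were -1.14 at 24 h (adjusted p = 3.98e-05), -0.69 at 72 h (adjusted p = 0.00273) and 0.02 at 1 week (adjusted p = 0.934). Vldlr, a lipoprotein receptor that ATF4 is known to raise, was lower at the 3 times (-0.76, -0.87 and -0.86).

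The enzymes of serine and one-carbon synthesis fell at every time. The 3 steps from glycolysis to serine are run by Phgdh, Psat1 and Psph. Psat1 stood at 399, 380 and 392 CPM in NSPs, at 135, 150 and 127 CPM at 24 h and at 114, 91.2 and 112 CPM at 1 week, where it was 3.69-fold lower than in NSPs. Phgdh was 1.71-fold, 1.84-fold and 2.44-fold lower at 24 h, 72 h and 1 week, and Psph was 2.07-fold, 2.05-fold and 2.21-fold lower. Psph shares 452 exonic bases with Cct6a on the opposite strand.

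In mitochondria, Shmt2 turns serine into glycine and a one-carbon unit, and Mthfd2 and Aldh1l2 pass this unit on. Mthfd2 had 52.6, 58.0 and 58.6 CPM in NSPs and 3.78, 4.75 and 5.79 CPM at 24 h. At 72 h it had 2.27, 2.88 and 3.14 CPM and at 1 week 6.93, 4.82 and 6.34 CPM. No differentiated library came near the NSP libraries, and the fall was 11.8-fold at 24 h (-3.56 ± 0.34, adjusted p = 1.09e-07), 20.2-fold at 72 h and 9.33-fold at 1 week.

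Shmt2 was 4.10-fold, 5.87-fold and 5.53-fold lower. Aldh1l2 was 1.94-fold, 2.82-fold and 4.98-fold lower, with NSP replicate 1 at 30.7 CPM and the other 2 NSP libraries at 62.2 and 63.3 CPM. It shares 1056 exonic bases with D10Wsu102e on the opposite strand, whose reads cannot be told apart without strand. Asns, which makes asparagine, had 104, 143 and 149 CPM in NSPs, 34.8, 41.3 and 32.0 CPM at 24 h and 13.2, 18.3 and 22.6 CPM at 72 h. It was 3.66-fold lower at 24 h, 7.30-fold at 72 h and 7.44-fold at 1 week.

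The amino acid transporters did not move together. Slc7a5 and Slc3a2 encode the light and heavy chains of 1 carrier of large neutral amino acids, and Slc3a2 also pairs with the cystine carrier Slc7a11. Slc7a5 stood at 135, 232 and 215 CPM in NSPs, at 46.9, 45.5 and 54.8 CPM at 24 h and at 19.8, 24.8 and 16.9 CPM at 72 h. It was 3.95-fold lower at 24 h, 9.45-fold at 72 h (-3.24 ± 0.38, adjusted p = 9.99e-07) and 9.86-fold at 1 week.

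Slc3a2 had 150, 198 and 190 CPM in NSPs, 209, 240 and 281 CPM at 72 h and 267, 229 and 258 CPM at 1 week. It was 1.36-fold higher than in NSPs at 72 h (adjusted p = 0.0126) and 1.4-fold at 1 week (adjusted p = 0.00620), with no overlap of the groups. At 24 h it was not called (-0.26), but it was lower without the 3 libraries that stood apart (-0.39, adjusted p = 0.00741). The 72 h call was lost without NSP replicate 1 (adjusted p = 0.0682), without 72 h replicate 3 (adjusted p = 0.0778) or with a replicate block that left the third 72 h library unpaired (adjusted p = 0.0726). Slc7a3, a carrier of arginine and lysine, rose from 1.27, 2.80 and 2.16 CPM in NSPs to 5.22, 4.11 and 2.92 CPM at 72 h and 5.12, 6.41 and 5.28 CPM at 1 week. It was 1.94-fold higher at 72 h (adjusted p = 0.00687) and 2.68-fold at 1 week (adjusted p = 0.000210).

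Slc7a11 split the NSP libraries. It had 68.1, 327 and 326 CPM in NSPs, 69.9, 51.3 and 50.8 CPM at 24 h, 60.5, 95.3 and 70.5 CPM at 72 h and 12.8, 10.0 and 31.2 CPM at 1 week. NSP replicate 1 overlapped with the 24 h and 72 h libraries and the other 2 did not. The log2 fold changes were -2.07 at 24 h (adjusted p = 0.00937), -1.67 at 72 h (adjusted p = 0.0264) and -3.75 at 1 week (adjusted p = 0.000102), and without the 3 libraries that stood apart they were -2.53, -2.12 and -4.21. The 72 h call was lost without NSP replicate 2 or 3 or 72 h replicate 1 or 3 (adjusted p up to 0.0886).

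**Figure D3:**
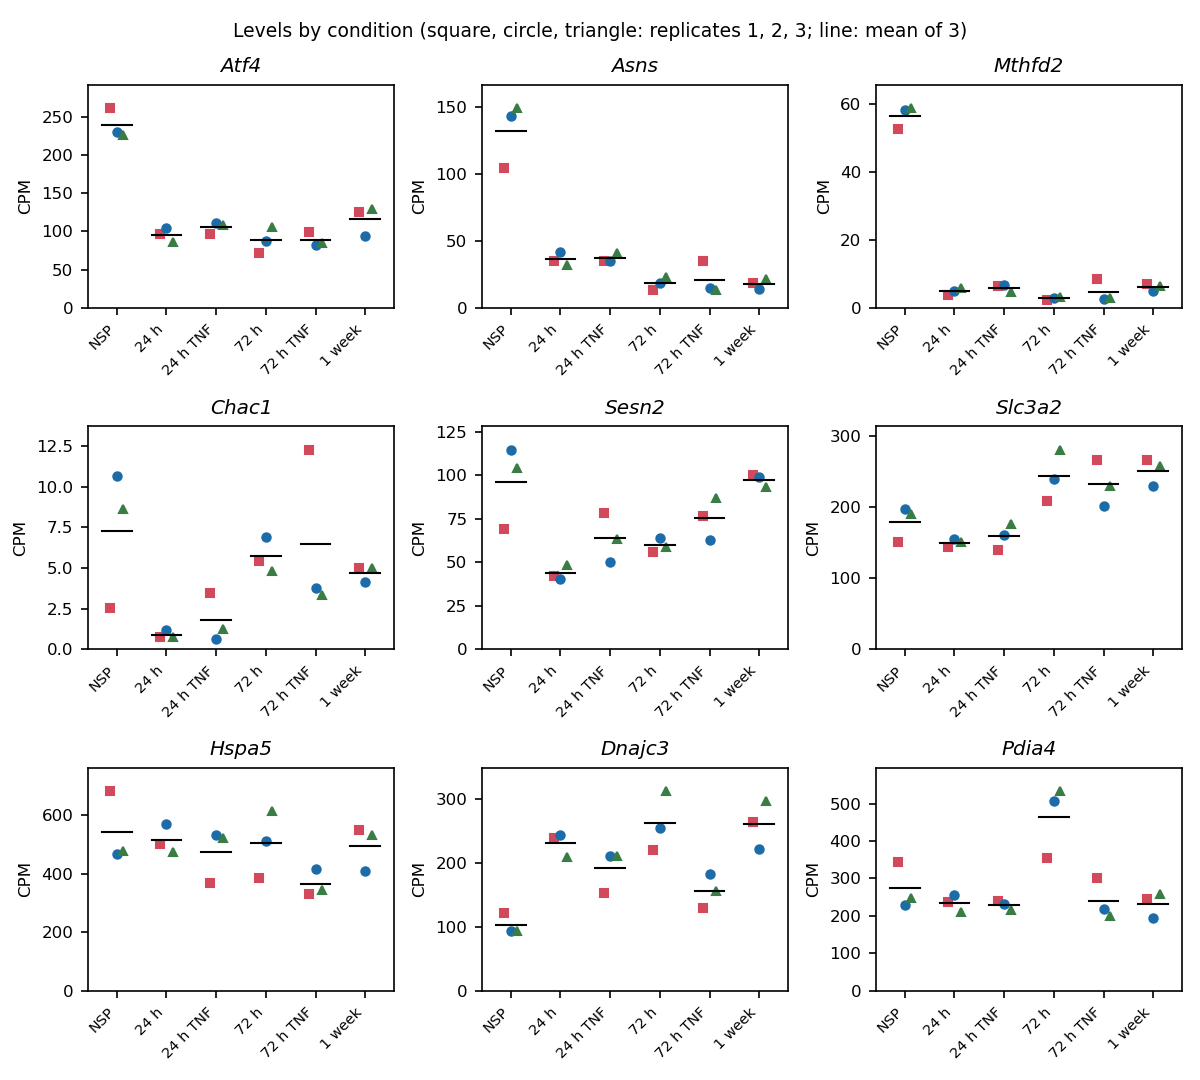
CPM (y axis, from 0) of 9 genes in the 6 conditions (x axis); squares, circles and triangles are replicates 1, 2 and 3 and lines are means of 3. Atf4, Asns and Mthfd2 are highest in NSPs, Chac1 and Sesn2 are low at 24 h and higher later, Slc3a2 and Dnajc3 are above NSPs from 72 h and 24 h on, Hspa5 overlaps between NSPs and the later conditions without TNF, and Pdia4 is highest at 72 h without TNF.

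In the endoplasmic reticulum arm the best known marker of the response did not change by this test. Hspa5 encodes BiP, the chaperone that holds the 3 sensors inactive. It was counted at 681, 466 and 477 CPM in NSPs, at 502, 568 and 474 CPM at 24 h, at 385, 512 and 615 CPM at 72 h and at 548, 408 and 532 CPM at 1 week. The groups overlapped, and the log2 fold changes were -0.07, -0.10 and -0.13 with a standard error of 0.19 each (adjusted p = 0.768, 0.671 and 0.588). They were 0.11, 0.09 and 0.07 when the 3 libraries that stood apart were left out.

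Xbp1, the substrate of IRE1, was not called either (0.07, -0.19 and -0.36, adjusted p = 0.788, 0.423 and 0.112). It had 42.7, 35.5 and 37.8 CPM in NSPs and 31.8, 23.1 and 35.6 CPM at 1 week. Atf6, the third sensor, had 79.0, 82.2 and 81.6 CPM in NSPs, 100, 92.3 and 94.0 CPM at 24 h and 99.7, 105 and 110 CPM at 72 h. It rose 1.18-fold at 24 h (adjusted p = 0.0473) and 1.30-fold at 72 h (adjusted p = 0.00312). At 1 week Atf6 was not called (0.15, adjusted p = 0.202), but it was with at least 10 counts in every library (0.26, adjusted p = 0.0238). The 24 h call was lost without any 1 of 13 libraries, which include each NSP and each 24 h library (adjusted p up to 0.153), and with the replicate number as a block (adjusted p = 0.0639). The 72 h call was lost with no filter on low counts (0.34, adjusted p = 0.0799).

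Of the other chaperones, Hsp90b1, the resident HSP90, was 1.32-fold, 1.4-fold and 1.54-fold lower at 24 h, 72 h and 1 week. It had 737, 525 and 535 CPM in NSPs and 411, 341 and 413 CPM at 1 week. Without NSP replicate 1 the 24 h and 72 h calls were lost (adjusted p = 0.221 and 0.0860). The 24 h call was also lost without any 1 of the 24 h libraries (adjusted p up to 0.102) and with the replicate block (adjusted p = 0.0520), and the 72 h call without 72 h replicate 1 (adjusted p = 0.0696). The lectin chaperones of glycoproteins, Canx and Calr, differed in time. Canx, at 1546, 1151 and 1157 CPM in NSPs, was lower at 24 h (-0.50, adjusted p = 0.0122) and 72 h (-0.39, adjusted p = 0.0432). Its 24 h call was lost without NSP replicate 1 (adjusted p = 0.0719), and its 72 h call without the 3 libraries that stood apart (-0.24, adjusted p = 0.136), with the replicate number as a block (adjusted p = 0.0554) or without any 1 of 9 libraries (adjusted p up to 0.220).

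Calr was called at 1 week alone (1.76-fold lower, adjusted p = 0.00378), with 656, 514 and 517 CPM in NSPs and 352, 257 and 352 CPM at 1 week. Sdf2l1, a partner of BiP, was lower at 72 h (2.35-fold, adjusted p = 0.00349) and 1 week (2.13-fold, adjusted p = 0.00735). Manf, a secreted factor kept by BiP, had 98.6, 67.5 and 61.9 CPM in NSPs and 30.2, 39.9 and 52.5 CPM at 72 h. It fell 1.85-fold at 72 h and 2.10-fold at 1 week. Creld2, another induced secretory protein, was not called at any time (0.14, -0.09 and 0.08).

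The disulphide isomerases, which make and rearrange the bonds between cysteines, went different ways. Pdia4 stood at 344, 229 and 248 CPM in NSPs, 236, 257 and 210 CPM at 24 h, 356, 507 and 533 CPM at 72 h and 244, 195 and 259 CPM at 1 week. It was higher at 72 h than in NSPs (0.77 ± 0.19, adjusted p = 0.00174) and not called at 24 h or 1 week (-0.22 and -0.23). Pdia3 was lower at 72 h and 1 week (-0.44 at both, adjusted p = 0.0194 and 0.0186), though not without the 3 libraries that stood apart (-0.25 at both, adjusted p = 0.0771 and 0.0767). Pdia6 was lower at 72 h (-0.57, adjusted p = 0.0239) and 1 week (-0.74, adjusted p = 0.00428). The 72 h call of Pdia6 was lost without NSP replicate 1 (adjusted p = 0.114), without 72 h replicate 1 (adjusted p = 0.121) or without 72 h replicate 2 (adjusted p = 0.0584).

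Among the J proteins, which bring substrates to BiP, Dnajc3 rose in every differentiated condition without TNF. Dnajc3, known as p58IPK, inhibits the eIF2 alpha kinases. It had 122, 93.6 and 92.7 CPM in NSPs, 239, 244 and 210 CPM at 24 h, 220, 255 and 312 CPM at 72 h and 265, 222 and 297 CPM at 1 week. The groups did not overlap, and Dnajc3 was 2.25-fold (adjusted p = 2.32e-05), 2.55-fold and 2.54-fold higher. Dnajb9 was 1.57-fold higher at 72 h (adjusted p = 0.00960, and 0.0753 with a replicate block that left the third 72 h library unpaired) and not called at 24 h or 1 week (0.29 and 0.25), and Dnajb11 was not called at any time (-0.14, -0.28 and -0.10).

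Of the genes for degradation, Herpud1, a scaffold of the ligase complex, had 23.8, 33.7 and 36.1 CPM in NSPs, 34.1, 44.2 and 47.5 CPM at 72 h and 55.8, 41.1 and 56.7 CPM at 1 week. It was 1.64-fold higher at 1 week (adjusted p = 0.00138) and 1.34-fold higher at 72 h (adjusted p = 0.0386). The 72 h call was lost without NSP replicate 1 (adjusted p = 0.191), 72 h replicate 2 (0.108) or 72 h replicate 3 (0.152). DESeq2 (0.0675), RLE normalization (0.0519), no filter on low counts (0.0650) and only the groups compared (0.0596) ended it too. Without the 3 libraries that stood apart the value was 0.26 (adjusted p = 0.156). Edem1, which draws misfolded glycoproteins out of folding, fell at every time, from 52.1, 36.8 and 38 CPM in NSPs to 27.2, 24.2 and 25.4 CPM at 24 h and 20.1, 19.8 and 20.6 CPM at 72 h. It was 1.65-fold, 2.09-fold and 2.11-fold lower. Sel1l, the membrane adaptor, was 1.26-fold higher at 72 h (adjusted p = 0.0132, and 0.120 with no filter on low counts) and not called at 24 h or 1 week (0.19 and 0.24). Its 72 h call was also lost without 72 h replicate 3 (adjusted p = 0.0537) or NSP replicate 2 (0.0646). Syvn1, the ligase itself, was not called at any time (0.05, -0.28 and -0.18).

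**Figure D4:**
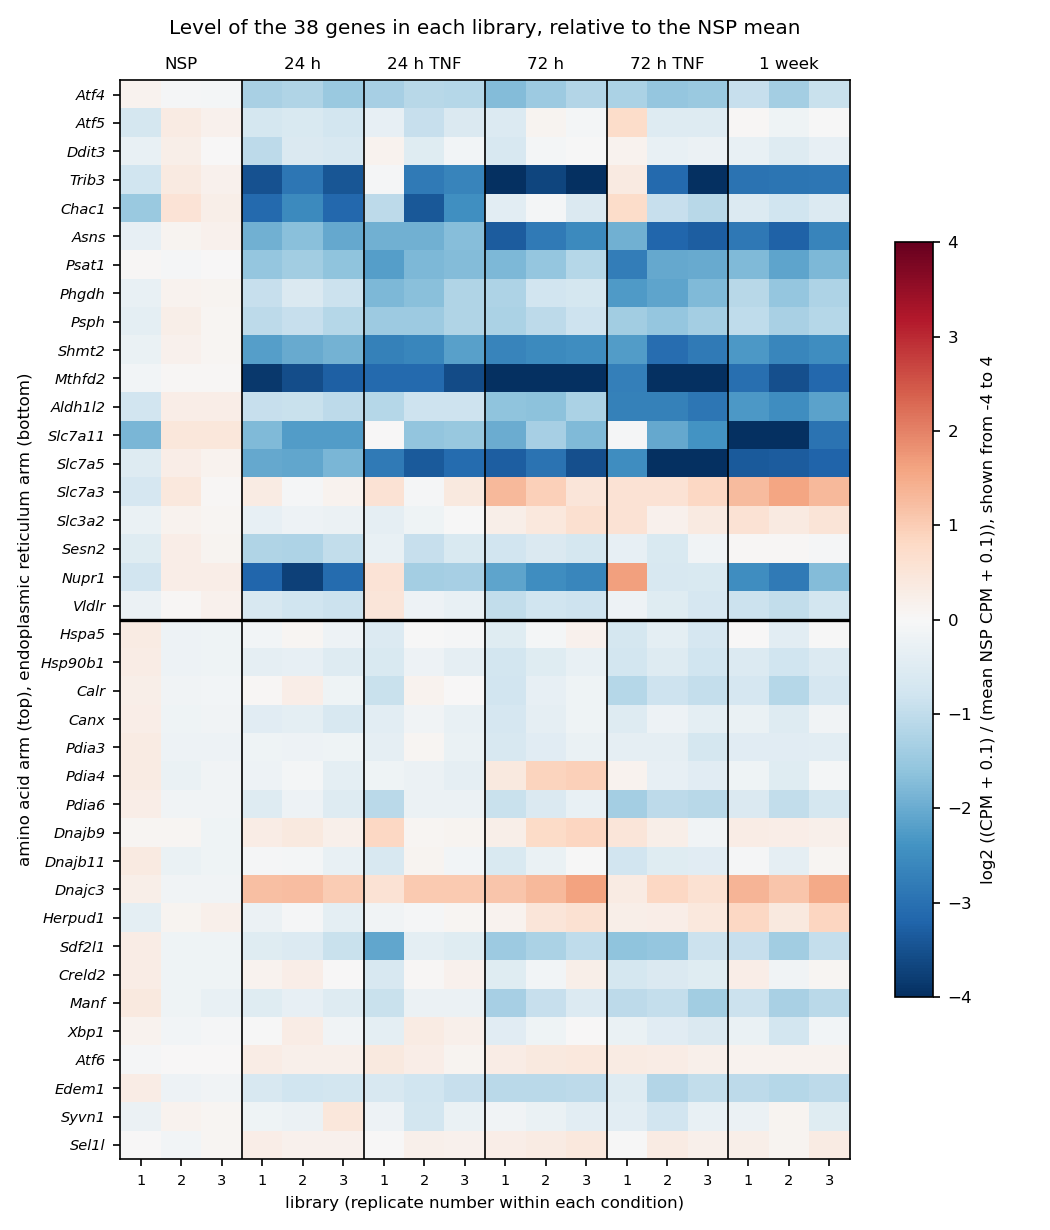
Colour gives the log2 of (CPM + 0.1) over (mean NSP CPM + 0.1) for the 38 genes (y axis) in the 18 libraries (x axis), blue for lower and red for higher than the NSP mean. Blue fills most of the upper block outside NSPs, Dnajc3 is red in all 15 differentiated libraries, and TNF replicate 1 at both times is paler or red for Trib3, Slc7a11 and Nupr1.

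Further gene lists were counted in the same comparisons, in which 25.5% to 29.1% of all genes fell and 27.2% to 29.6% rose, and differences between lists were not tested. Among further genes known as ATF4 targets, 13, 14 and 13 of the 17 tested fell at 24 h, 72 h and 1 week, and 1 rose at each time. At 24 h the largest falls were Mthfd1l (-2.81), Aldh18a1 (-2.30) and Slc1a5 (-2.20), of mitochondrial folate, proline synthesis and glutamine uptake, and Atf3 rose (1.33). Gdf15 and Fgf21 did not pass the filter. Of 20 cytosolic transfer RNA synthetases, 18, 18 and 17 fell and 0, 0 and 1 rose, with medians of -1.09, -1.18 and -0.97 and the largest falls at 24 h in Vars (-1.97), Mars (-1.64) and Cars (-1.59). By unadjusted p below 0.05 none of the synthetases rose at 24 h, and DESeq2 called 18 of 20.

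Of 22 further folding and degradation genes of the endoplasmic reticulum, 7, 8 and 9 fell and 2, 4 and 5 rose, with medians of -0.17, -0.09 and -0.23. At 24 h these were led by Pdia5 (-1.55), P4hb (-0.85) and Ppib (-0.72) among the falls and by Txndc5 (0.82) and Wfs1 (0.80). All 6 mitochondrial chaperones and proteases fell at each of the 3 times, led at 24 h by Hspd1 (-1.70), Hspe1 (-1.43) and Hspa9 (-1.22). Of 10 cytosolic heat shock genes, 5, 6 and 4 fell and 2, 2 and 3 rose, led at 24 h by Dnajb1 (-0.91), Hsp90ab1 (-0.77) and Dnaja1 (-0.69) among the falls and by Hspa1a (2.02) and Hspa1b (1.19), near-identical copies whose reads are uncertain, among the rises. Among 11 genes that set the response, 3, 3 and 4 fell and 1, 2 and 2 rose. Eif2s1, the target of the kinases, was lower (-1.22, -1.39 and -1.26), as were Ppp1r15b (-0.42) and Mbtps1 (-0.23) at 24 h, and Ppp1r15a, which directs the dephosphorylation of eIF2 alpha, was higher (0.50, 1.25 and 0.86).

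Between 24 h and 72 h without TNF, 8 of the 38 genes were called, against 24.8% of all genes tested (12.2% higher and 12.6% lower). In the amino acid arm Chac1, Slc7a3 and Slc3a2 rose and Slc7a5, Asns and Shmt2 fell, and in the endoplasmic reticulum arm Pdia4 and Herpud1 rose. Chac1 was 6.28-fold higher at 72 h (2.65 ± 0.62, adjusted p = 0.00397) and Pdia4 1.98-fold (0.99 ± 0.19, adjusted p = 0.000651). Slc7a3 was 1.76-fold higher (adjusted p = 0.0398), Slc3a2 1.62-fold (adjusted p = 0.00121) and Herpud1 1.57-fold (adjusted p = 0.00823). Slc7a5 was 2.39-fold lower (adjusted p = 0.0158), Asns 1.99-fold (adjusted p = 0.0142) and Shmt2 1.43-fold (adjusted p = 0.0491).

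The regulators were not called in that step: Atf4 -0.12, Ddit3 0.54 (adjusted p = 0.0743), Hspa5 -0.03 and Xbp1 -0.25. Without the 3 libraries that stood apart, which are in neither condition, 19 genes were called, Ddit3 among them (0.55, adjusted p = 0.0196). The calls of Shmt2 and Slc7a3 were lost without any 1 of 13 and of 7 libraries (adjusted p up to 0.172 and 0.141) and with the replicate block (adjusted p = 0.0604 and 0.0555). Those of Asns (without 24 h replicate 2 or 72 h replicate 1), Slc7a5 (without 24 h or 72 h replicate 3) and Herpud1 (without 72 h replicate 3) were lost too, at adjusted p up to 0.0612, 0.0726 and 0.05001.

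From 72 h to 1 week, 3 of 38 genes were called, against 6.63% of all genes tested (2.68% higher and 3.96% lower). Pdia4 returned, 2.00-fold lower at 1 week than at 72 h (-1.0 ± 0.19, adjusted p = 0.00249). Sesn2 was 1.63-fold higher (adjusted p = 0.0190) and Aldh1l2 1.77-fold lower (adjusted p = 0.0241). These latter calls were lost without any 1 of 5 libraries each (adjusted p up to 0.0694 and 0.127), and Pdia4 stayed called without each library in turn. Atf4 was 0.40 higher (adjusted p = 0.128, and 0.0422 without the 3 libraries that stood apart), and Ddit3, Hspa5 and Xbp1 differed by -0.17, -0.02 and -0.17. Slc7a11, named after its values were seen, was 4.24-fold lower at 1 week than at 72 h with no overlap of the groups, at an adjusted p of 0.0573 (7.37e-05 without the 3 libraries).

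With TNF fewer of these genes, and fewer of all genes, were called than against NSPs. At 24 h, 3 of 38 genes were called, against 3.5% of all genes tested (2.18% higher and 1.32% lower): Nupr1 and Vldlr rose and Phgdh fell. At 72 h, 6 of 38 were called, against 9.56% of all genes (4.35% higher and 5.21% lower): Nupr1 rose, and Phgdh, Psat1, Aldh1l2, Pdia4 and Dnajc3 fell. The median log2 fold changes were 0.14 and 0.09 in the amino acid arm, -0.04 and -0.23 in the endoplasmic reticulum arm and -0.01 and -0.01 over all genes. Without the 3 libraries that stood apart, 4 and 9 genes were called at 24 h and 72 h. In the endoplasmic reticulum arm at 24 h edgeR called 0 of 19 genes, with 1 gene at an unadjusted p below 0.05 and 0 called by DESeq2.

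Nupr1 had 0.453, 0.280 and 0.489 CPM at 24 h and 7.24, 1.86 and 1.89 CPM at 24 h with TNF. It had 1.06, 0.798 and 0.715 CPM at 72 h and 15.4, 3.08 and 3.19 CPM at 72 h with TNF. Every library with TNF was above every library without it, and replicate 1 was the highest at both times. The log2 fold changes were 3.19 ± 0.76 at 24 h (adjusted p = 0.0215) and 3.09 ± 0.65 at 72 h (adjusted p = 0.00418). Leaving out the 3 libraries that stood apart gave 2.21 (adjusted p = 0.00119) and 1.89 (adjusted p = 0.000317). The 24 h call was lost when only 24 h TNF replicate 1 was left out (2.21, adjusted p = 0.172) and when 24 h replicate 1, 2 or 3 was (adjusted p = 0.0833, 0.123 and 0.0818).

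Vldlr had 70.5, 63.3 and 59.7 CPM at 24 h and 153, 94.9 and 88.0 CPM with TNF, again with replicate 1 the highest. It was 1.73-fold higher (0.79 ± 0.18, adjusted p = 0.0153), and 0.48 higher without the 3 libraries (adjusted p = 0.00835). The call was lost without 24 h TNF replicate 1 alone (0.48, adjusted p = 0.115), 24 h replicate 2 (0.0782) or 24 h replicate 3 (0.0985), and with only the groups compared in the fit (0.0649).

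Phgdh, the first enzyme of serine synthesis, had 147, 189 and 156 CPM at 24 h and 81.4, 89.0 and 122 CPM with TNF. At 72 h it had 119, 166 and 173 CPM without and 58.1, 64.9 and 81.8 CPM with TNF. No library with TNF reached a library without it at the same time. Phgdh was 1.68-fold lower at 24 h (-0.75 ± 0.19, adjusted p = 0.0293) and 2.24-fold at 72 h (-1.16 ± 0.19, adjusted p = 0.000462), or -0.65 and -1.05 without the 3 libraries (adjusted p = 0.0317 and 0.000513). The 24 h call was lost without 24 h TNF replicate 1 or 2 or without any 1 of the 24 h libraries (adjusted p from 0.0557 to 0.140), and the 72 h call held without each library in turn.

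Psat1, the next enzyme, had 113, 134 and 175 CPM at 72 h and 57.2, 93.7 and 97.1 CPM with TNF. It was 1.70-fold lower (-0.77 ± 0.19, adjusted p = 0.0137), and the call was lost without 72 h TNF replicate 1 (adjusted p = 0.0585) or 72 h replicate 3 (adjusted p = 0.108), though not without the 3 libraries together (-0.55, adjusted p = 0.0164). Aldh1l2 had 16.9, 16.7 and 21.8 CPM at 72 h and 7.94, 7.83 and 7.01 CPM with TNF. Its groups were far apart and its TNF libraries close together, at 2.43-fold lower (-1.28 ± 0.22, adjusted p = 0.000749), or -1.31 without the 3 libraries.

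In the endoplasmic reticulum arm, Pdia4 had 356, 507 and 533 CPM at 72 h and 302, 220 and 200 CPM with TNF. Every library with TNF was below every library without it, and Pdia4 was 1.93-fold lower (-0.95 ± 0.19, adjusted p = 0.00234), or -1.14 without the 3 libraries. Dnajc3 had 220, 255 and 312 CPM at 72 h and 129, 182 and 156 CPM with TNF. It was 1.68-fold lower (-0.75 ± 0.17, adjusted p = 0.00820), and this call was lost without 72 h replicate 3 (adjusted p = 0.0642) but not without the 3 libraries (-0.62, adjusted p = 0.00495). With a replicate block that left the third 72 h library unpaired, Psat1 and Dnajc3 were not called (adjusted p = 0.0767 and 0.0882), and Psat1 was not with only the groups compared in the fit (adjusted p = 0.0687).

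Slc7a5, named after its values were seen, had 46.9, 45.5 and 54.8 CPM at 24 h and 27.3, 18.8 and 22.6 CPM with TNF, with no overlap. The difference of -1.09 ± 0.36 on the log2 scale was not called by edgeR (adjusted p = 0.123). It was called by DESeq2 (adjusted p = 0.0496), with only the groups compared in the fit (0.00692), with no filter on low counts (1.29e-08), without 72 h TNF replicate 1 (0.00230) and without the 3 libraries (-1.26, 5.05e-05). At 72 h it had 19.8, 24.8 and 16.9 CPM without and 34.4, 8.01 and 9.64 CPM with TNF, so that replicate 1 was the highest and the other 2 were below every untreated library. The difference was -0.24 (adjusted p = 0.729), and -1.21 without 72 h TNF replicate 1 (adjusted p = 0.00307).

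The main regulators were not called with TNF. Atf4 differed by 0.14 and 0.01 at 24 h and 72 h, Ddit3 by 0.63 (adjusted p = 0.133) and 0.09, Hspa5 by -0.12 and -0.47 (adjusted p = 0.133), and Xbp1 by 0.02 and -0.24. The 72 h value of Hspa5 was called without 72 h replicate 1 (-0.63, adjusted p = 0.0381) and with no filter on low counts (-0.46, adjusted p = 0.0340). Of the further lists, Gpt2 (-1.03) and Slc6a9 (-0.96) fell and Cebpb (1.58) and Eif4ebp1 (0.89) rose at 24 h among 17 ATF4 targets, and Gpt2 (-0.98) and Slc6a9 (-0.84) fell at 72 h. At 72 h, Txndc5 (-0.93), Sec61b (-0.69) and Wfs1 (-0.68) fell and Ero1lb (0.56) rose among 22 further endoplasmic reticulum genes. None of the synthetases, the mitochondrial chaperones, the heat shock genes or the 11 controlling genes was called at 24 h by edgeR or DESeq2, with 1, 0, 1 and 3 genes at an unadjusted p below 0.05. At 72 h the only call in these 4 lists was Qars (-0.43), a synthetase.

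**Figure D5:**
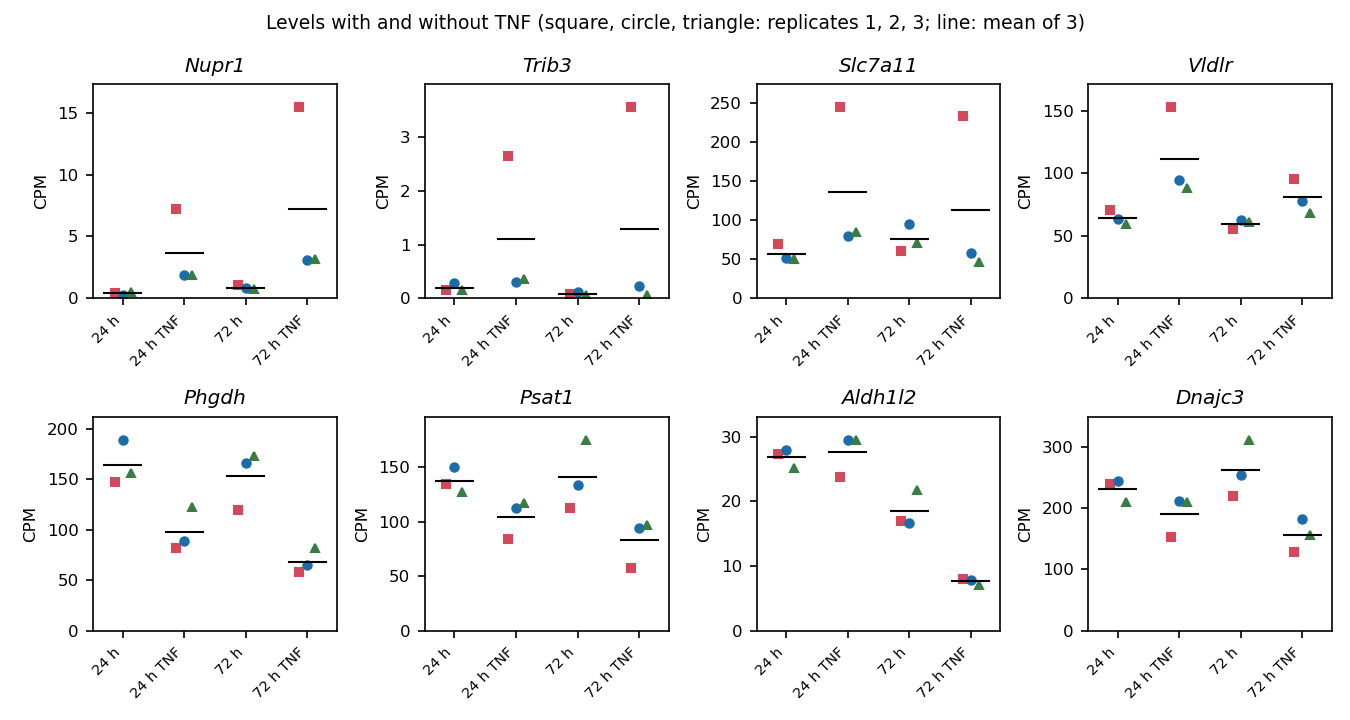
CPM (y axis, from 0) of 8 genes at 24 h and 72 h without and with TNF (x axis); squares, circles and triangles are replicates 1, 2 and 3 and lines are means of 3. The square of each TNF condition stands above the other 2 libraries for Nupr1, Trib3, Slc7a11 and Vldlr, and below them for Psat1 and Dnajc3.

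In several stress genes replicate 1 stood far above the other 2 libraries with TNF. Trib3 had 0.151, 0.280 and 0.163 CPM at 24 h and 2.65, 0.298 and 0.354 CPM with TNF, and at 72 h 0.0757, 0.123 and 0.0550 CPM without and 3.55, 0.232 and 0.0626 CPM with TNF. Replicate 1 had 42 and 63 reads and no other TNF library more than 6. At 24 h these other TNF libraries still lay above every untreated one in CPM, at 4 and 6 reads against 2, 5 and 2. The log2 fold changes of 2.39 and 3.84 were not called by edgeR (adjusted p = 0.355 and 0.0626), and without the 3 libraries that stood apart they were 0.64 and 0.80. DESeq2 called the 72 h value (3.92, adjusted p = 0.0101), as did edgeR without 24 h TNF replicate 1, 72 h TNF replicate 2 or 72 h TNF replicate 3 (adjusted p from 0.0202 to 0.0336), and both times were called with no filter on low counts (adjusted p = 0.000478 and 9.59e-09).

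Slc7a11 had 245, 80.3 and 84.5 CPM at 24 h and 234, 58.1 and 46.2 CPM at 72 h with TNF, and Chac1 had 3.46, 0.597 and 1.24 CPM and 12.3, 3.77 and 3.32 CPM. Neither was called against the untreated libraries of the same time, though Slc7a11 was called higher at both times with no filter on low counts (1.25 and 0.59, adjusted p = 8.54e-13 and 0.00332). At 24 h every TNF library of Slc7a11 lay above every untreated library, while at 72 h replicates 2 and 3 lay below every untreated library. Replicate 1 of the TNF conditions differed more from its 2 partners, in the median, in the genes whose promoters carry the ATF element shown above. Over those 6 genes of the amino acid arm the median difference of replicate 1 was 1.71 at 24 h and 1.97 at 72 h on the log2 scale, and over the 10 other genes of this arm with a promoter it was -0.17 and 0.28. The ranges overlapped, from -0.10 to 2.63 with the element and -0.45 to 0.47 without it at 24 h, and from 0.39 to 3.84 and -0.74 to 1.65 at 72 h. In NSPs the medians were -1.05 and -0.39, again with overlap. These are medians over genes of single libraries and no test was made of them.

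For the fold changes from NSPs, the 6 genes with the ATF element had medians of -2.53, -2.10 and -2.66 at 24 h, 72 h and 1 week, and the 10 without it had medians of -1.09, -0.96 and -1.09, with overlapping ranges. In the endoplasmic reticulum arm the 10 genes with 1 of its 2 elements had medians of -0.11, -0.28 and -0.16 and the 7 without had medians of -0.19, -0.19 and -0.36.

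With TNF present throughout, 6 of 38 genes were called between 24 h and 72 h, against 13.3% of all genes tested (5.38% higher and 7.93% lower). Chac1 (1.85, adjusted p = 0.0355) and Slc3a2 (0.55, adjusted p = 0.0143) rose. Aldh1l2 fell, with 23.7, 29.5 and 29.5 CPM at 24 h and 7.94, 7.83 and 7.01 CPM at 72 h, 3.62-fold lower (-1.86 ± 0.22, adjusted p = 2.67e-05). Calr (-0.78, adjusted p = 0.0231), Pdia6 (-0.69, adjusted p = 0.0296) and Manf (-0.70, adjusted p = 0.0372) fell in the endoplasmic reticulum arm. Libraries with the same number deviated together in these conditions, but replicate 1 stood apart in both, which was not separated from pairing. With the replicate number as a block, Manf was no longer called (adjusted p = 0.0555) and Phgdh was called lower (-0.51, adjusted p = 0.04997). With only the groups compared in the fit, Aldh1l2 alone was called, and Slc3a2 was not (0.57, adjusted p = 0.0653).

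Those 3 calls of the endoplasmic reticulum arm and that of Chac1 were lost without single libraries, at adjusted p up to 0.157 for Calr, 0.167 for Pdia6, 0.169 for Manf and 0.260 for Chac1. The groups of Chac1, Calr and Pdia6 overlapped, with Calr at 304, 617 and 568 CPM at 24 h and 257, 316 and 292 CPM at 72 h. Atf4, Ddit3, Hspa5 and Xbp1 differed by -0.25, -0.01, -0.38 and -0.52 and were not called. Without the 3 libraries that stood apart, 15 genes were called, Xbp1 among them (-0.76, adjusted p = 0.00557).

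Whether the effect of TNF differed between 72 h and 24 h depended on the libraries used and on the processing. With all 18 libraries, in the test of the difference itself edgeR called 0 genes, with 2 at an unadjusted p below 0.05, both lower, and 1 called by DESeq2, against 0.458% of all genes called by edgeR (0.135% higher and 0.324% lower). The 2 were Aldh1l2 (-1.32 ± 0.30, adjusted p = 0.0593) and Pdia4 (-0.92 ± 0.26, adjusted p = 0.163), named after their values were seen. Both were called without the 3 libraries that stood apart, Aldh1l2 at -1.43 (adjusted p = 0.000537) and Pdia4 at -1.05 (adjusted p = 0.0142). With no filter on low counts both were called (adjusted p = 0.000242 and 0.00338). Slc7a5 was then called in the other direction (0.87, adjusted p = 0.0209). With only the groups compared in the fit, Aldh1l2 was called (adjusted p = 0.0193). For Atf4, Ddit3, Hspa5 and Xbp1 the differences were -0.13, -0.54, -0.35 and -0.26.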

How the data were processed

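The authors made stranded libraries from total RNA depleted of ribosomal RNA and deposited raw counts per gene, without normalization, for 18 libraries. The submitters' processing notes name FastQC, Trim Galore, STAR, SAMtools, featureCounts and mm10. Tool versions and the strand setting of the counting are not given in the sources used here, and 12 of the 38 genes share exonic bases with another gene. Column names matched the labels except 1, the third untreated 72 h library, whose column carries replicate number 4 and was matched by its condition and sequencing index. No column was left unmapped. Gene names and positions came from GENCODE M21 (54809 of 54838 identifiers found) and promoters from RefSeq on GRCm38.p6.

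The quasi-likelihood test of edgeR 4.0.16 (R 4.3.3, limma 3.58.1) was run with TMM factors on the 20067 genes that passed the tool's filter by condition. A single model held all 18 libraries, 1 coefficient for each condition and no covariate, and p-values adjusted by Benjamini-Hochberg were called below 0.05. CPM use the TMM factors, and errors of fold changes are standard errors of the log2 estimate. The test was also run on simulated counts, whose outcome is not reported here. Library totals of 12509693 to 22549627 limit what can be seen of genes below about 1 CPM. Intervals rest on the pooled reads of a condition, so they cover counting error only and not the spread between libraries. PCR copies are counted as separate reads, so even this error may be understated.

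The 38 genes, their 2 arms, the other lists and the motifs were chosen with earlier results of these data known. Values are given in each comparison for Atf4, Ddit3, Hspa5, Xbp1 and up to 5 called genes per arm and direction with the largest change, every other gene of the 38 is accounted for in the comparisons with NSPs, and up to 3 called genes per direction are named for other lists, in the comparisons at 24 h with NSPs and with TNF. Alternatives were DESeq2 1.42.0, RLE normalization, no filter, a minimum of 10 counts for a gene throughout, models restricted to the conditions under comparison, a block for the replicate number and the omission of each library in turn. Leaving out 3 libraries together and a block with the third 72 h library unpaired were added after the data were seen.

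Replicate numbers come from the labels. Deviations from the condition means correlated above 0.1 in every same-numbered pair in 1 comparison, 72 h TNF against 24 h TNF (0.255 to 0.291). Deviations within a condition cancel out, and replicate 1 stood apart in both of these conditions. The check therefore cannot tell paired libraries from a shared outlying number. Pairing was not established there, and the block stayed an alternative. No gene set test was run. Chromatin accessibility was not analysed here.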

Additional observations from a re-analysis of the deposited data

How the results depend on the processing

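The counts of called genes among the 38 against NSPs moved by less than 1.5 times under every alternative, from 19 to 24 at 24 h, 23 to 30 at 72 h and 23 to 25 at 1 week when single libraries were left out. Leaving out single libraries gave 5 to 10 genes for 72 h against 24 h, 1 to 5 for 1 week against 72 h, 0 to 4 for TNF at 24 h, 4 to 10 for TNF at 72 h, 2 to 11 for 72 h TNF against 24 h TNF and 0 to 1 for the difference between the TNF effects. The count of 0 for TNF at 24 h came without 24 h TNF replicate 1, 24 h replicate 2 or 24 h replicate 3. Counts also moved by over 1.5 times without these libraries: 24 h replicate 2 or 3 (5 genes for 72 h against 24 h), 1 week replicate 1 or 2 or 72 h replicate 2 or 3 (1 gene for 1 week against 72 h), 72 h TNF replicate 1 or 3 (5 genes there), 24 h replicate 1 (1 gene for TNF at 24 h), 24 h TNF replicate 1 or 72 h replicate 1 (10 genes for TNF at 72 h), 24 h TNF replicate 1 (11 genes between the TNF conditions), 24 h TNF replicate 2 (2 genes), 24 h TNF replicate 3 or 72 h TNF replicate 3 (3 genes), and NSP replicate 1 or 72 h TNF replicate 1 (1 gene for the difference between TNF effects).

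With no filter on low counts the genes called were 13 for 72 h against 24 h, 5 for 1 week against 72 h, 7 for TNF at 24 h, 12 for TNF at 72 h, 10 for 72 h TNF against 24 h TNF and 3 for the difference between TNF effects. Fitting only the groups compared gave 14, 5, 1 and 1 for 72 h against 24 h, 1 week against 72 h, 72 h TNF against 24 h TNF and the difference between TNF effects, and leaving out the 3 libraries together, an alternative chosen after seeing the data, gave 19, 7, 15 and 2, the last being Aldh1l2 and Pdia4. DESeq2 gave 1 for the difference between TNF effects. The causes were not tested.

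With the replicate block, 19, 28 and 24 genes were called against NSPs, 6 for 72 h against 24 h, 3 for 1 week against 72 h, 3 and 6 for TNF at 24 h and 72 h, 6 for 72 h TNF against 24 h TNF and 0 for the difference between TNF effects. Among the 38 genes the block ended the calls of Hsp90b1 and Atf6 at 24 h and Canx at 72 h against NSPs, of Shmt2 and Slc7a3 between 24 h and 72 h and of Manf between the TNF conditions, and it called Phgdh between the TNF conditions. It changed no other call. In each of the other comparisons at least 1 same-numbered pair correlated at 0.1 or less, and whether these libraries are paired is not known. The block with the third 72 h library unpaired, chosen after seeing the data, gave 1 gene for 1 week against 72 h, 24 for 72 h against NSPs and 4 for TNF at 72 h. Among the 38 genes it ended the calls of Dnajb9, Slc3a2, Slc7a11, Herpud1 and Sel1l at 72 h against NSPs and Atf6 at 24 h, Slc7a5 and Shmt2 between 24 h and 72 h, Aldh1l2 and Sesn2 between 72 h and 1 week, Psat1 and Dnajc3 with TNF at 72 h and Chac1 between the TNF conditions (adjusted p from 0.0541 to 0.141).

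Some uncalled values near 0 changed sign. Hspa5 turned to 0.038 at 24 h with at least 10 counts in every library, to 0.11, 0.088 and 0.069 at 24 h, 72 h and 1 week and to 0.014 with TNF at 24 h without the 3 libraries, and to 0.0025 (no filter) and 0.17 (unpaired block) for 1 week against 72 h. Without the 3 libraries Atf4 and Ddit3 turned to -0.071 and -0.051 with TNF at 72 h. Ddit3 turned to 0.022 (no filter), 0.041 (at least 10 counts), 0.015 (only the groups compared) and 0.038 (without the 3 libraries) for 72 h TNF against 24 h TNF, and Atf4 to 0.021 (unpaired block) for the difference between TNF effects. Leaving out single libraries gave -0.17 to 0.12, -0.27 to 0.093, -0.23 to 0.069, -0.20 to 0.13, -0.19 to 0.15 and -0.22 to 0.013 for Hspa5 at 24 h, 72 h and 1 week against NSPs, 72 h against 24 h, 1 week against 72 h and TNF at 24 h. Xbp1 ranged from -0.052 to 0.15 at 24 h against NSPs and from -0.13 to 0.19 with TNF at 24 h. Atf4 ranged from -0.27 to 0.011 for 72 h against 24 h, -0.12 to 0.16 with TNF at 72 h and -0.26 to 0.018 for the difference between TNF effects. Ddit3 ranged from -0.085 to 0.19 with TNF at 72 h and from -0.13 to 0.19 between the TNF conditions.

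Over the 38 genes and 9 comparisons, the 8 alternatives that left out no single library gave 2703 values, of which 48 lost a call and 90 gained one. Of the gains, 38 came without the 3 libraries and 30 with no filter on low counts. Depth limits the low genes most: Trib3 at 72 h rests on 1, 2 and 1 reads.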
